A study of Mus musculus with 3 samples.

Results

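Joint-surface and superficial-zone genes were described in primary chondrocytes, the cells that make cartilage, isolated from knee joint cartilage of C57BL/6 mice. The set held 9 genes, taken by gene symbol from the 44788 genes of the count table, and each of the 9 was found. They comprised the lubricant gene Prg4, the secreted protein gene Angptl7, the growth factor genes Gdf5 and Gdf6, and the genes of the transcription factors Pax9, Barx1, Osr1, Osr2 and Erg. The cKO group held 2 libraries, from Col2a1-CreERT2;Kdm6bf/f chondrocytes. The Control group held 1 library, from Kdm6bf/f chondrocytes that lacked the recombinase. Cells of both genotypes therefore carried the floxed alleles of Kdm6b, and both were cultured in F12 medium with 10% fetal bovine serum and received 1 μM 4-hydroxytamoxifen for 48 h. CreERT2 is a recombinase that enters the nucleus when it binds 4-hydroxytamoxifen, and the Col2a1 promoter restricts it to cells that make type II collagen, so cells of the culture that do not use that promoter would keep Kdm6b. The labels give no age of the animals and do not say whether animals were pooled.

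A joint starts as the interzone, a band of cells that interrupts a cartilage rod and turns away from growth plate cartilage. Gdf5 marks this band, and cells that have expressed it give rise to articular cartilage, ligament and synovium. At the surface of mature joints, the superficial zone of cartilage and the lining of the synovium secrete lubricin, the product of Prg4, which keeps the sliding surfaces apart. Kdm6b encodes a demethylase that removes the repressive methyl groups of lysine 27 on histone H3, and the comparison sets chondrocytes whose floxed Kdm6b was exposed to the recombinase against chondrocytes in which it was not.

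Library totals lay between 12489738 and 12636471 counts. Kdm6b itself was counted 1049 and 948 times in cKO, against 1289 in Control. Its log2 fold change was -0.39 ± 0.14 (SE), which did not pass the test (adjusted p = 0.138 in edgeR), and gene-level counts also cover exons outside the floxed part, so this value checks the labels weakly. The libraries also differed in sex-linked transcripts. Xist, the RNA of the inactive X chromosome, had 2 counts in replicate 1 of cKO, 10081 in replicate 2 and 1 in Control, and the Y-linked gene Ddx3y had 680, 0 and 732 counts in the same order. The cKO libraries thus came from different animals or pools, and only replicate 1 matched the Control library in these transcripts, so genotype and sex cannot be told apart in replicate 2. For the 9 genes, counts are given for each cKO library. None of the 9 genes lies on a sex chromosome.

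Chondrocyte markers were abundant in every library. The summed level of 8 markers, Col2a1, Acan, Sox9, Hapln1, Col9a1, Col11a2, Matn1 and Matn3, was 14360 and 13640 CPM (counts-per-million, on library sizes scaled for composition) in cKO, against 24270 CPM in Control. Of these 8 markers, 7 fell and Col2a1 did not pass, where 1.9% of all 15529 genes tested fell (adjusted p under 0.05 in edgeR). The summed level of 8 markers of synovial lining and synovial fibroblasts was 239 and 233 CPM in cKO, against 155 CPM in Control. Of the 6 that could be tested, Cd55, Thy1 and Htra4 rose, where 3.01% of all genes tested rose. Of those that could not be tested, Clic5 had 9 and 4 counts in cKO against 0 in Control and Pi16 had 1, 0 and 0. Of the markers of macrophages and leukocytes, Emr1, Tyrobp and Cd52 were at 0 in every library. The 7 markers summed to 9.15 and 8.13 CPM in cKO and 4.76 CPM in Control. Csf1r had 33 and 28 counts in cKO, against 8 in Control, and Cd68 had 59 and 57 against 32. Lyz2 had 21 and 18 against 19, and Ptprc 1 and 1 against 0. Csf1r, Cd68 and Lyz2 did not pass (adjusted p = 0.0835, 0.293 and 0.994 in edgeR). Of 5 endothelial markers, Cdh5, Emcn and Tie1 were at 0 in every library, and the 5 summed to 0.401 and 0.156 CPM in cKO and 0 in Control. Of 5 skeletal muscle markers, Myog and Ckm were at 0 in every library, and the 5 summed to 4.66 and 5.55 CPM in cKO and 5.64 CPM in Control, most of it Acta1. Markers of tendon, the tissue next to the joint, summed to 29.3 and 29.9 CPM in cKO and 23.1 CPM in Control. Col1a1, Col1a2, Col3a1 and S100a4, which mark dedifferentiated chondrocytes and fibroblasts, summed to 19850 and 18090 CPM in cKO and 20560 CPM in Control. Of 5 osteoblast markers 3 could be tested, and the bone matrix gene Ibsp fell.

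**Figure D1:**
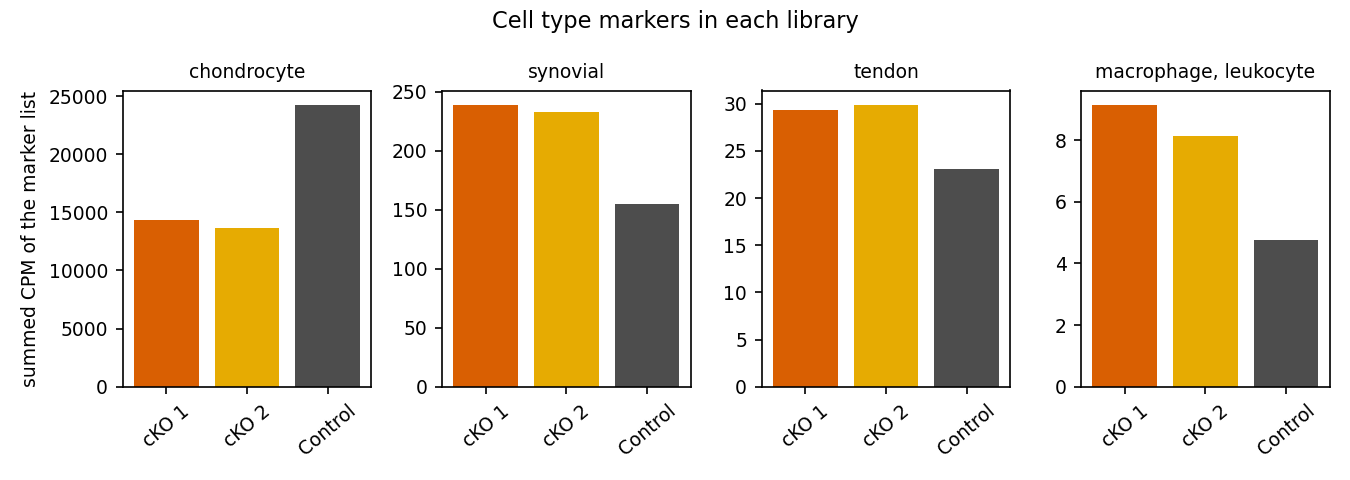
Summed CPM of 4 lists of cell type markers (vertical axes, each with its own scale) in cKO replicate 1, cKO replicate 2 and the Control library (bars, 1 library each). The chondrocyte sum was 14360 and 13640 CPM in cKO and 24270 CPM in Control, while the synovial sum was 239 and 233 CPM in cKO and 155 CPM in Control. Most of the chondrocyte sum was Col2a1 and most of the synovial sum was Pdpn, and neither gene passed the test.

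RefSeq promoter sequences (build GRCm38.p6) were at hand for 4 of the 9 genes, namely Angptl7, Pax9, Barx1 and Erg. The 250 bases before the RefSeq start are shown for Angptl7 and Pax9, the genes of the 9 with the largest rises, and for Erg, which was lower in cKO without passing the test. They are written 5′ to 3′ along the gene's own strand, with each CpG dinucleotide in capitals, because CpG-rich promoters are those that H3 lysine 27 methylation is known to occupy.
Angptl7: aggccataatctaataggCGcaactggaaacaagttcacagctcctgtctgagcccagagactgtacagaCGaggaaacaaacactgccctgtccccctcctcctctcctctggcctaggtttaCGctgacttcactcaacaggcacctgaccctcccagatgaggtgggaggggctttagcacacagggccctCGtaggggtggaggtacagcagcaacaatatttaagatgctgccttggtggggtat
Pax9: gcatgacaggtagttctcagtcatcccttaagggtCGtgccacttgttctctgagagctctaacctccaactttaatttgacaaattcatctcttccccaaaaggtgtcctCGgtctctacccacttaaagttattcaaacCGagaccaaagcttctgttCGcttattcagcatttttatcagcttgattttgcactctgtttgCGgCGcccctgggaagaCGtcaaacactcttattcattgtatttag
Erg: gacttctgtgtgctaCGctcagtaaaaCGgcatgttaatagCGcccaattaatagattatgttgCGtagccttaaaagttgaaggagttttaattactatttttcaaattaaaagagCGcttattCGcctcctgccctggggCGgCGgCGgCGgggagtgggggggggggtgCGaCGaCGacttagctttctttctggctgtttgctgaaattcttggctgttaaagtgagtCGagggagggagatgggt
The Angptl7 sequence is chr4:148500463-148500712 (minus strand) and held 4 CpGs. The Pax9 sequence is chr12:56695221-56695470 (plus strand) and held 7, although the GENCODE model of this gene begins upstream of it, at 56691767. The Erg sequence is chr16:95586594-95586843 (minus strand), before the most distal of 3 RefSeq starts, and held 14. The median over 32544 promoters was 6 CpGs, and the Barx1 sequence, not shown, held 40, more than 98.7% of all promoters. On these windows, Angptl7 and Pax9 were close to the median CpG content of promoters. CpGs at the upstream GENCODE start of Pax9 were not counted. Whether CpG content or H3 lysine 27 methylation had a part in the changes was not tested.

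The same windows were searched on both strands for the TATA box TATAAA, the cyclic AMP response element TGACGTCA, the AP-1 site TGANTCA, the GC box GGGCGG and the interferon-stimulated response element (GAAA, any 2 bases, GAAA). Over all 32544 promoters, the shares that held them were 12.3%, 1.55%, 6.73%, 33.0% and 2.98%, in that order. No match of the 5 motifs was in the Angptl7 or Pax9 window, which says only that these letters are not in these 250 bases. The Barx1 window held 8 GC boxes and the distal Erg window held 1. A TATA box lay in the window of another Erg start.

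Among the 9 genes, 4 rose and 1 fell in cKO chondrocytes, and 4 did not pass the test. The call of Prg4, 1 of the 4 that rose, is not firm, and without it 3 rose, as in the default form of the edgeR fit. Prg4, Angptl7, Gdf5 and Pax9 rose, by between 1.48-fold and 3.52-fold, and Gdf6 fell to 0.571 of the Control level. Over all 15529 genes tested, 4.91% passed the same rule in either direction, 3.01% higher and 1.9% lower in cKO. The median log2 fold change of the 9 genes was 0.07, against 0.00 over all genes tested. The test was edgeR's quasi-likelihood F test with Benjamini-Hochberg adjustment over all genes tested, called at an adjusted p under 0.05, and with a single Control library it rests on the spread between the cKO libraries and on a variance shared across genes. In bulk RNA, fewer cells of a type and less RNA per cell cannot be told apart.

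**Figure D2:**
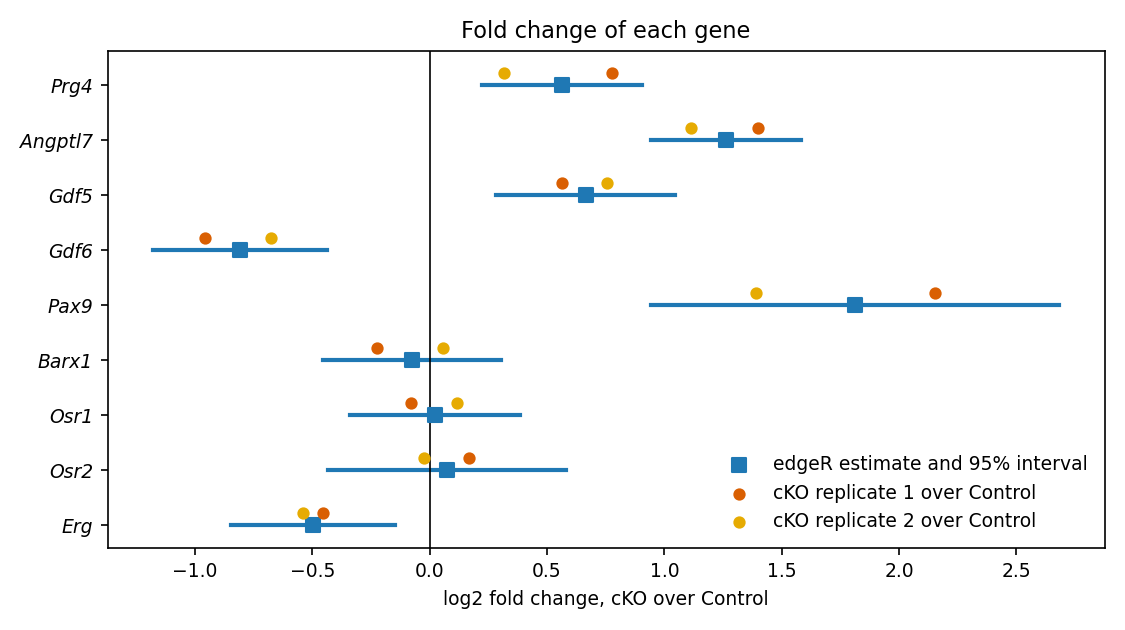
Log2 fold change of cKO over Control (horizontal axis) for each of the 9 genes, with the edgeR estimate and its 95% interval (square and line) and each cKO library over the Control library (circles). The intervals of Prg4, Angptl7, Gdf5 and Pax9 lie above 0 and those of Gdf6 and Erg below it, but Erg did not pass after adjustment (adjusted p = 0.106 in edgeR).

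Prg4 (ENSMUSG00000006014.16) lies on chromosome 1 from 150449412 to 150466165 on the minus strand (GRCm38), with 4280 exonic bases. It had 2885 and 2159 counts in cKO, against 1680 in Control, which is 232, 169 and 135 CPM. Both cKO libraries lay above the Control library, but they also lay apart from each other, replicate 1 at 1.37 times replicate 2 (95% counting interval 1.30 to 1.45). The rise was 1.48-fold (95% interval 1.17 to 1.87), a log2 fold change of 0.56 ± 0.16 (SE), and edgeR gave an adjusted p of 0.0489. This is just under the threshold, and the call depends on the form of the edgeR fit, which was chosen after results under several forms were seen. Replicate 1 stood at 1.71 times the Control level (1.61 to 1.82) and replicate 2 at 1.25 times (1.17 to 1.33), so the log2 value was 0.77 without cKO replicate 2 and 0.32 without cKO replicate 1. The gene did not pass in DESeq2 (adjusted p = 0.318) or with edgeR's older form of the fit, the default of the version used (adjusted p = 0.0614). That older form gave 0.139 with robust estimation and 0.0350 with a common dispersion. Prg4 passed in 2 of the 12 other settings, over which the adjusted p ranged from 0.0350 to 0.647. At its 3′ end, 204 exonic bases overlap exons of Tpr on the opposite strand, and Tpr, a nuclear pore gene, had 3347 and 3353 counts in cKO, against 3286 in Control. These counts are for the whole of Tpr, and the part of reads from the shared bases in the Prg4 value was not tested.

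Prg4 was also set against Acan, the gene of the main proteoglycan of cartilage, within each library, which needs no scaling between libraries. Per exonic length, the Prg4 to Acan ratio was 0.406 (95% counting interval 0.390 to 0.423) and 0.327 (0.312 to 0.342) in cKO, and 0.0985 (0.0937 to 0.103) in the Control library. The cKO ratios were separated from the Control ratio by far more than from each other, and the fall of Acan makes up the larger part of this shift. The synovial markers Cd55, Thy1 and Htra4 moved in the same direction as Prg4, which synovial lining cells make too. Cd55, a complement regulator of the lining, had 246 and 230 counts in cKO, against 69 in Control. Thy1, a marker of fibroblasts under the lining, had 623 and 259 counts in cKO, against 139 in Control, and Htra4 had 47 and 53 against 15. Pdpn had 1708 and 2016 counts in cKO, against 1314 in Control, and did not pass (adjusted p = 0.059 in edgeR). Dpp4 and Cd34 had log2 fold changes of -0.17 and -0.02 (adjusted p = 0.852 and 0.984 in edgeR). The part of these cells in the Prg4 value was not tested.

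Angptl7 had the clearest difference of the 9. It encodes a secreted angiopoietin-like protein known from joint cartilage and from the trabecular meshwork of the eye. It had 2873 and 2422 counts in cKO, against 1086 in Control, which is 231, 189 and 87.5 CPM. Both cKO libraries were above the lone Control value, at 2.64 (95% counting interval 2.46 to 2.83) and 2.16 (2.01 to 2.32) times it, and the ratio between them was 1.22. The rise was 2.40-fold (95% interval 1.92 to 2.99), a log2 fold change of 1.26 ± 0.15 (SE), and edgeR gave an adjusted p of 6.06e-06. The gene also passed in DESeq2 (adjusted p = 1.06e-07), and it ranked 449 of 15529 genes by log2 fold change. It did not pass without the filter on low counts (adjusted p = 0.529) or with 3 prior degrees of freedom, a setting that gives each gene's own spread more weight (adjusted p = 0.197), and it passed in 10 of the 12 other settings.

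Angptl7 (ENSMUSG00000028989.3) lies on chromosome 4 from 148495183 to 148500460 on the minus strand (GRCm38), inside the span of Mtor, which is read from the opposite strand. All 2157 of its exonic bases fall within Mtor, with 0 bases on an Mtor exon. Unspliced Mtor RNA can therefore add reads to Angptl7 where counting does not use strand, and the use of strand is not given in the sources used here. Mtor, a kinase gene of growth control, had 1595 and 1441 counts in cKO, against 1203 in Control. Per exonic length, the Angptl7 to Mtor ratio was 8.44 (95% counting interval 7.94 to 8.98) and 7.88 (7.38 to 8.41) in cKO, against 4.23 (3.89 to 4.60) in Control. The cKO intervals overlap each other and lie above the Control interval, but they cover counting error only. Mtor counts do not measure its unspliced RNA separately, so the part of such reads in the Angptl7 value was not tested. The ratio also uses the same Angptl7 counts as the call above, so it is not separate support for that call.

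The growth factor genes moved apart. Gdf5 and Gdf6 encode related BMP-family ligands of the interzone, and mice that lack both lose more joints than mice that lack either. Gdf5 (ENSMUSG00000038259.4, chromosome 2, 155941023 to 155945367, reverse strand of GRCm38) had 376 and 441 counts in cKO, against 253 in Control, which is 30.2, 34.5 and 20.4 CPM. Both cKO libraries were above the Control library, and the ratio between them was 0.876 (95% counting interval 0.762 to 1.01). The rise was 1.58-fold (95% interval 1.22 to 2.06), a log2 fold change of 0.66 ± 0.18 (SE), and edgeR gave an adjusted p of 0.0370. It did not pass in DESeq2 (adjusted p = 0.533), and it passed in 6 of the 12 other settings, over which the adjusted p ranged from 0.0283 to 0.560. A gene model on the opposite strand, Gm15557, shares 936 exonic bases with Gdf5, and its reads cannot be told apart from those of Gdf5 where strand was not used.

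Gdf6 (ENSMUSG00000051279.2, chromosome 4, 9844372 to 9862345, plus strand, GRCm38) had 244 and 305 counts in cKO, against 472 in Control, which is 19.6, 23.8 and 38.0 CPM. Both cKO libraries were below the Control library, at 0.515 (95% counting interval 0.439 to 0.602) and 0.626 (0.541 to 0.725) times it. The log2 fold change was -0.81 ± 0.18 (SE), which is 1.75-fold lower in cKO, and edgeR gave an adjusted p of 0.00701. It did not pass in DESeq2 (adjusted p = 0.228), and it passed in 8 of the 12 other settings, over which the adjusted p ranged from 0.00355 to 0.560.

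The balance of the ligand genes was read within each library, where scaling cancels out. Per exonic length, the Gdf5 to Gdf6 ratio was 2.35 (95% counting interval 1.99 to 2.77) in replicate 1 of cKO and 2.20 (1.90 to 2.56) in replicate 2. It was 0.816 (0.698 to 0.953) in the Control library. Gdf5 was thus the more abundant transcript per length in both cKO libraries and Gdf6 in the Control library. The cKO intervals overlap each other and do not reach the Control interval, but they cover counting error only. This ratio uses the same counts as the calls of Gdf5 and Gdf6 above, so it is not separate support for them. With 2 libraries against 1, the smallest p that an exact permutation test allows is 0.333, so no p is given for the ratio.

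**Figure D3:**
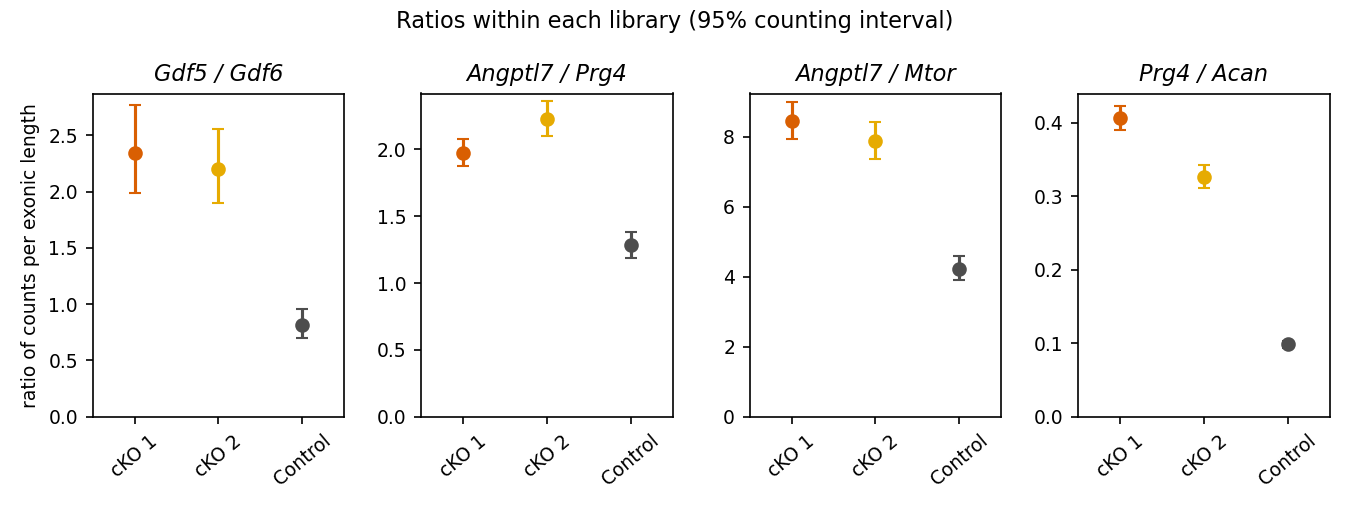
Ratio of 2 genes' counts per exonic length within each library (vertical axes, each with its own scale) with exact 95% binomial intervals, which cover counting error only (points and bars, 1 library each). The Gdf5 to Gdf6 ratio was 2.35 and 2.20 in cKO and 0.816 in Control, and the Angptl7 to Mtor ratio was 8.44 and 7.88 in cKO and 4.23 in Control. These ratios use the same counts as the calls of Gdf5, Gdf6 and Angptl7, so they are not separate support for those calls.

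Around these ligands, the genes of receptors and signal carriers mostly did not pass the test. Of 18 genes for their receptors, antagonists, Smads and targets, 0 rose, 1 fell and 17 did not pass, with a median log2 fold change of -0.13. The share that passed is near the 4.91% of all genes tested that passed in either direction. Of the 18, 3 had an unadjusted p under 0.05, a share near the 15.7% of all genes tested that did, 1 passed in limma-voom and 0 passed in DESeq2. The gene that fell was Nog, which encodes the extracellular antagonist noggin and is needed for joints to form. It had 65 and 91 counts in cKO, against 162 in Control, with a log2 fold change of -1.08 ± 0.27 (SE), and edgeR gave an adjusted p of 0.0191, against 0.530 in DESeq2. Bmpr1b, the type I receptor that Gdf5 prefers, had 185 and 170 counts in cKO, against 171 in Control, with a log2 fold change of 0.03 (95% interval -0.44 to 0.49). The genes nearest to passing were Smad7, a feedback inhibitor, with 435 and 486 counts in cKO against 342 in Control, Id3, a transcriptional target, with 2848 and 2535 against 3254, and Smad1, a signal carrier, with 355 and 343 against 433. Their log2 fold changes were 0.40 ± 0.17, -0.30 ± 0.14 and -0.34 ± 0.17 (SE, adjusted p = 0.235, 0.292 and 0.350 in edgeR).

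Of the 5 transcription factor genes, Pax9 was the only one past the threshold. It encodes a paired-box factor that is known in the vertebral column, teeth and palate. Pax9 (ENSMUSG00000001497.18, chromosome 12, 56691767 to 56712822, plus strand, GRCm38) had 107 and 65 counts in cKO, against 24 in Control, which is 8.59, 5.08 and 1.93 CPM. Both cKO libraries were above the Control library, at 4.44 (95% counting interval 2.83 to 7.23) and 2.63 (1.62 to 4.39) times it, and they differed from each other by a ratio of 1.69 (1.23 to 2.34). The rise was 3.52-fold (95% interval 1.92 to 6.42), a log2 fold change of 1.81 ± 0.42 (SE), and edgeR gave an adjusted p of 0.0101. This was the largest fold of the 9 on the lowest counts, and the gene did not pass in DESeq2 (adjusted p = 0.198), with a range of 0.00577 to 0.560 over the 12 other settings, of which 8 called it. Slc25a21, which overlaps 189 exonic bases of Pax9 on the opposite strand, had 0 and 6 counts in cKO, against 0 in Control. Pax1, the closest relative of Pax9, had 10 and 8 counts in cKO, against 28 in Control, on the other side of the Control library, with a log2 fold change of -1.65 ± 0.57 (adjusted p = 0.119 in edgeR).

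Erg, an ETS-family factor gene of developing articular cartilage, had 343 and 332 counts in cKO, against 468 in Control. Both cKO libraries were below the Control library, at 0.730 (95% counting interval 0.633 to 0.841) and 0.688 (0.596 to 0.793) times it, and the ratio between them was 1.06 (0.910 to 1.24). The log2 fold change was -0.50 ± 0.17 (SE) with an unadjusted p of 0.00737 and an adjusted p of 0.106 in edgeR, so it did not pass. It did not pass in any of the 12 other settings, where the adjusted p ranged from 0.0888 to 0.963. Erg also marks endothelium, whose genes Cdh5, Emcn and Tie1 were at 0 in every library, while Pecam1 had 1 and 2 counts in cKO against 0 in Control and Kdr 4 and 0 against 0. Erg (ENSMUSG00000040732.20) lies on chromosome 16 from 95359169 to 95586593 on the minus strand (GRCm38).

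Osr1 and Osr2, zinc-finger factor genes that are jointly needed for synovial joints to form in mice, did not pass, and in CPM the Control library lay between the cKO libraries for both. Osr1 had 352 and 415 counts in cKO, against 371 in Control, which is 28.3, 32.4 and 29.9 CPM. Its log2 fold change was 0.02, with a 95% interval of -0.34 to 0.38. Osr2 had 151 and 136 counts in cKO, against 134 in Control, which is 12.1, 10.6 and 10.8 CPM, with a log2 fold change of 0.07 (95% interval -0.43 to 0.58). Barx1, a homeobox gene of joint regions, stomach and teeth, had 304 and 380 counts in cKO, against 354 in Control, which is 24.4, 29.7 and 28.5 CPM with Control again in between, and a log2 fold change of -0.08 (95% interval -0.46 to 0.30). The upper ends of these intervals correspond to a rise of 1.497-fold in Osr2, 1.30-fold in Osr1 and 1.23-fold in Barx1. Osr1 lies on chromosome 12 from 9570116 to 9581500 and Osr2 on chromosome 15 from 35296098 to 35303305, and Barx1 lies on chromosome 13 from 48662998 to 48666507, each on the plus strand (GRCm38).

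Counted over the 9 genes, both cKO libraries lay on one side of the Control library for 6, above it for Prg4, Angptl7, Gdf5 and Pax9 and below it for Gdf6 and Erg. Over all genes tested they lay on one side for 74.0%, above for 36.6% and below for 37.4%, so the share among the 9 is not a result about them.

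**Figure D4:**
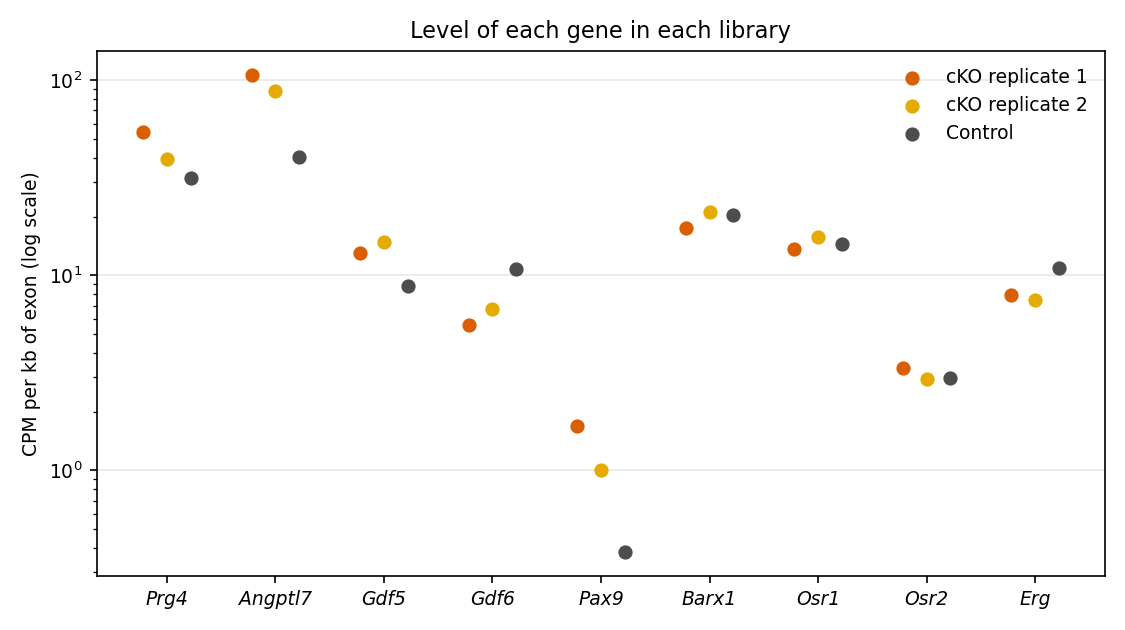
Level of each of the 9 genes as CPM per kilobase of exon (vertical axis, log scale) in cKO replicate 1, cKO replicate 2 and the Control library (points, 1 library each). Angptl7 was the highest in every library, at 107 and 87.7 in cKO and 40.6 in Control, and Pax9 the lowest, at 1.70 and 1.00 in cKO and 0.383 in Control.

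Levels of different genes were compared as CPM per kilobase of exon, using GENCODE M21 exon lengths. Angptl7 was the most abundant of the 9 in each library, at 107 and 87.7 in cKO and 40.6 in Control, followed by Prg4 at 54.1 and 39.4 in cKO and 31.6 in Control. Barx1 came next in each library, at 17.5 and 21.2 in cKO and 20.4 in Control, then Osr1 at 13.7 and 15.7 in cKO and 14.5 in Control. The levels of Osr1 and Gdf5 lay close together in cKO, where Gdf5 was at 13.0 and 14.9, within the spread between the libraries, and apart in Control, where Gdf5 was at 8.79. Erg was at 7.95 and 7.48 in cKO and 10.9 in Control, and Gdf6 at 5.55 and 6.75 in cKO and 10.8 in Control, so Erg and Gdf6 could not be ordered in the Control library. Osr2 was at 3.35 and 2.93 in cKO and 2.98 in Control. Pax9 was the least abundant in each library, at 1.70 and 1.00 in cKO and 0.383 in Control. The order of the 3 genes Gdf5, Gdf6 and Erg differed between the cKO libraries and the lone Control library. Gdf5 was the highest of them in both cKO libraries and the lowest in the Control library.

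Other genes of the interzone went both ways. Of 16 listed genes 15 could be tested, and the neuronal gene Dcx, used as a label of articular precursors, was at 0 in each library. Of the 15, 1 rose, 1 fell and 13 did not pass, where 4.91% of all genes tested passed in either direction. The median log2 fold change was 0.08, and 6 of the 15 had an unadjusted p under 0.05 in edgeR, against 15.7% of all genes tested. Cd44, the hyaluronan receptor gene of the forming joint cavity, rose to 4602 and 4984 counts in cKO, against 2332 in Control, log2 fold change 1.01 ± 0.14 (SE), and edgeR gave an adjusted p of 5.41e-05. Enpp2, which encodes the lysophospholipase autotaxin, fell to 294 and 210 counts in cKO, against 447 in Control, log2 fold change -0.85 ± 0.20 (SE), and edgeR gave an adjusted p of 0.0113, but it did not pass in DESeq2 (adjusted p = 0.291). Jun, which acts upstream of Wnt ligands in the interzone, had 1437 and 1808 counts in cKO, against 1119 in Control. It did not pass in edgeR (adjusted p = 0.0527) and passed in limma-voom (adjusted p = 0.0493).

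The interzone Wnt ligand genes were low. Wnt16 had 62 and 25 counts in cKO, against 15 in Control (log2 fold change 1.51 ± 0.57 SE, adjusted p = 0.167 in edgeR). Wnt9a had 49 and 44 counts in cKO, against 26 in Control, and Wnt4 had 13 and 6 against 4. Each of these 3 was higher in both cKO libraries than in the Control library, as were 36.6% of all genes tested. None of the 3 passed, with adjusted p-values of 0.374 for Wnt9a and 0.617 for Wnt4 in edgeR. Tgfbr2, the TGF-beta receptor gene that marks slow-cycling joint progenitors in mice, had 5895 and 5785 counts in cKO, against 4539 in Control (log2 fold change 0.34 ± 0.14 SE, adjusted p = 0.234 in edgeR).

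Of 19 other superficial-zone genes and regulators of Prg4, 17 could be tested, and 0 rose and 0 fell in edgeR, where 4.91% of all genes tested passed. Of the 17, 3 had an unadjusted p under 0.05, a share again near the 15.7% of all genes, 0 passed in DESeq2 and 1 passed in limma-voom, with a median log2 fold change of 0.16. The gene called in limma-voom was Abi3bp, which encodes an extracellular matrix protein, at 5564 and 5271 counts in cKO, against 7450 in Control (log2 fold change -0.48 ± 0.14 SE, adjusted p = 0.0508 in edgeR). Dpt, the gene of dermatopontin, had 17 and 12 counts in cKO, against 35 in Control (adjusted p = 0.178), and Egfr, whose signal maintains the superficial zone in mice, had 1317 and 1210 counts in cKO, against 992 in Control (adjusted p = 0.259, both in edgeR). Creb5, which is required for Prg4 expression in the superficial zone, had 41 and 65 counts in cKO, against 43 in Control (adjusted p = 0.819 in edgeR). Foxo1 and Foxo3, factors that promote Prg4 expression, had log2 fold changes of 0.16 (95% interval -0.14 to 0.45) and 0.18 (-0.11 to 0.48). Thbs4, a thrombospondin gene, had 570 counts in replicate 1 of cKO, 74 in replicate 2 and 144 in Control, with replicate 1 far above the other libraries.

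Of 11 close relatives of the 9 genes, 7 could be tested, and 1 rose, 1 fell and 5 did not pass. Over all genes tested, 4.91% passed in either direction. Of the 7, 4 had an unadjusted p under 0.05 in edgeR, against 15.7% of all genes tested. Of these 4, 1 was higher and 3 were lower in cKO. The median log2 fold change of the 7 was -0.85. Angptl2, another angiopoietin-like gene, rose to 4661 and 5057 counts in cKO, against 3082 in Control, log2 fold change 0.63 ± 0.14 (SE), and edgeR gave an adjusted p of 0.00807. Angptl6 fell to 104 and 98 counts in cKO, against 221 in Control, log2 fold change -1.15 ± 0.23 (SE), and edgeR gave an adjusted p of 0.00319, but it did not pass in DESeq2 (adjusted p = 0.189) or with 5 prior degrees of freedom (adjusted p = 0.104). Angptl1 had 63 and 52 counts in cKO, against 102 in Control (adjusted p = 0.141 in edgeR). Among angiopoietin-like genes, Angptl7 and Angptl2 thus rose and Angptl6 fell. Gdf7, the third member of the Gdf5 subfamily, had 17 and 5 counts in cKO, against 22 in Control (adjusted p = 0.492 in edgeR). Fli1, the nearest relative of Erg, had 36 and 35 counts in cKO, against 41 in Control, and Barx2 had 2, 0 and 1. Fev and Vtn, the gene of vitronectin, which shares domains with lubricin, were at 0 in each library.

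**Figure D5:**
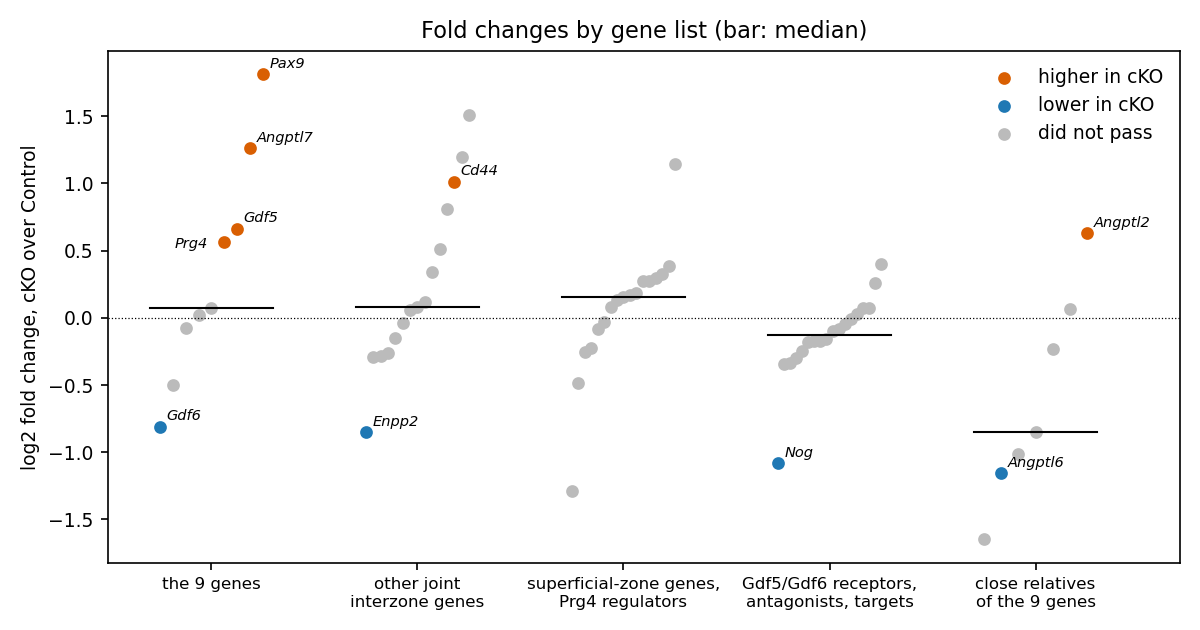
Log2 fold change of cKO over Control (vertical axis) for the 9 genes and for the tested genes of 4 lists (points, 1 gene each; horizontal bars, list medians), coloured by the edgeR call. The medians were 0.07 for the 9 genes, 0.08 for other interzone genes, 0.16 for superficial-zone genes, -0.13 for the signalling list and -0.85 for the relatives.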

How the data were processed

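RNA was sequenced from 2 cKO libraries and 1 Control library. Per the labels' protocols, RNA was extracted with Trizol, depleted of ribosomal RNA and made into libraries with the Ion Proton RNA-Seq kit. The authors deposited whole-number read counts per gene symbol, not normalised. The submitters' processing notes list the builds GRCm38 and GRCh37 with no role, and do not name the aligner, the counting tool, the annotation or whether strand was used, none of which is given in the sources used here.

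Counts were filtered with filterByExpr, which left 15529 genes, scaled by TMM, and tested with the bias-adjusted quasi-likelihood fit of edgeR 4.0.16 in R 4.3.3, which was also tested on simulated data, where fold changes came back without bias but most genes given a 2-fold change, and some given a 4-fold change, did not pass. The fit had 1 residual degree of freedom and a prior of 19.9, so the lone Control library is assumed to vary like the cKO libraries. The labels do not name separate animals, so p-values reflect only how far these libraries spread, which includes the difference in sex between the cKO libraries. The SE was obtained as log2 fold change over the square root of the F statistic, and counting intervals are exact (Clopper-Pearson) 95% binomial intervals that cover counting error only, since reads carry no molecular identifiers. Of 44788 symbols, 30940 matched exactly 1 gene in GENCODE M21 (GRCm38), which gave positions and exon lengths, and Emr1 stood for Adgre1. The 9 genes, the lists and the tests were chosen with earlier results of these data known. Named from each list were all genes called and at least the 3 others with the smallest p. Other genes were named for their role, after their values were seen. The alternatives were RLE scaling, other filters, prior degrees of freedom of 5 and 3, DESeq2 1.42.0, limma-voom 3.58.1 and leaving out each cKO library. The older edgeR fit, the default of this version, was run first and did not call Prg4. It was then run with robust estimation and with common, trended and classic dispersions, and the bias-adjusted form was made the main one after the results of all these were seen, because it matched an earlier analysis of these data. The older forms are given as alternatives added after seeing the data.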

Additional observations from a re-analysis of the deposited data

How the results depend on the processing

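The log2 fold changes of the 9 genes kept their direction under RLE scaling, both other filters, DESeq2, limma-voom and both prior settings, while the number called differed between them. Of the 9, 4 rose and 1 fell in the edgeR fit. With RLE scaling, and with a filter at a mean CPM of at least 1, 2 rose and 1 fell. In limma-voom 4 rose and 1 fell. In DESeq2, and with 5 prior degrees of freedom, 1 rose and 0 fell. With 3 prior degrees of freedom, or without a filter on low counts, 0 rose and 0 fell in edgeR, and at an unadjusted p under 0.05 the counts were 3 higher and 2 lower under either. For all genes, these counts were 755 higher and 506 lower of 15529 with 3 prior degrees of freedom. Without a filter they were 1082 and 747 of 24051. The older edgeR fit called 3 higher and 1 lower. It was run in 4 further ways, and 4 rose with a common dispersion and 3 with robust, trended or classic estimates, with 1 lower each time. Prg4 passed in limma-voom and in the older fit with a common dispersion (adjusted p = 0.0419 and 0.0350), and in none of the other 10 alternatives tested. Its adjusted p was 0.0614 in the older fit, 0.139 with robust, 0.0681 with trended and 0.0620 with classic estimates. Gdf5 passed in limma-voom and in all 5 older fits.

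Over all genes, 467 rose and 295 fell. The counts were 226 and 84 in DESeq2, 151 and 42 with the prior set to 5, 83 and 4 with it set to 3, and 0 and 0 without a filter, where 1082 and 747 of 24051 genes had an unadjusted p under 0.05. The cause of these differences was not tested. In the signalling list Nog was the 1 gene that fell, and 0 fell in DESeq2, without a filter or with the prior set to 5 or 3. Among interzone genes, 2 rose in limma-voom and in the older edgeR fit as it stands or with common or classic dispersions, 0 rose without a filter or with the prior set to 3, and 0 fell in DESeq2, without a filter or with the prior set to 5 or 3. Among superficial-zone genes 1 fell in limma-voom and in the older fit with robust estimation or a common dispersion. Among the relatives 0 rose without a filter or with the prior set to 5 or 3, and 0 fell there or in DESeq2.

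Leaving out a cKO library leaves 1 against 1, which gives a value without a test. The log2 fold change of Angptl7 then ranged from 1.11 to 1.40, of Pax9 from 1.39 to 2.15, of Gdf5 from 0.57 to 0.76, of Gdf6 from -0.96 to -0.67, of Prg4 from 0.32 to 0.77 and of Erg from -0.54 to -0.45, while those of Osr1, Osr2 and Barx1 changed sign. No paired analysis was possible because the labels give the Control library no replicate number. Depth limits Pax9 the most, with 24 counts in the Control library.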
